A study of Mus musculus with 21 samples.

Results

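Glutathione transferases and genes of the NRF2 antioxidant pathway were followed in mouse liver of 4 genotypes in 3 conditions. The members were all genes of the deposited expression table whose symbol begins with Gsta, Gstm, Gstp, Gstt, Gstk, Gsto, Gstz or Mgst and a digit, together with Nfe2l2, Keap1, Nqo1, Txnrd1, Gclc, Gclm, Srxn1, Hmox1, Aox1, Ephx1, Gsr and G6pdx. They were 36 of 22520 genes, made up of 21 Gst genes, 3 Mgst genes and 12 others. Of the 36, 33 passed the filter on low values, and the other 3 (Gsto2, Gstt4 and Mgst2) are described apart.

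WT livers were Ezh2fl/fl without Cre, and E1KO livers were Ezh1-/-. E2KO livers were Ezh2fl/fl with Alb-Cre, a recombinase driven by the albumin promoter and so active in hepatocytes, while the other cells of the liver keep Ezh2. DKO livers were Ezh1-/- Ezh2fl/fl with Alb-Cre. PRC2, the complex that methylates histone H3 at lysine 27, takes either Ezh1 or Ezh2 as its enzyme. All animals were on a mixed 129SV::FVB/N::C57BL/6 background. Untreated livers were taken at 2 or at 8 months. Livers exposed to the hepatotoxin CCl4 (carbon tetrachloride) came from animals aged 3 months, so the effects of CCl4 and of the added month cannot be told apart. The sources used here do not give sex or the dose of CCl4. RNA-seq values were deposited as FPKM, fragments scaled by gene length and library size, with 1 value for each of the 12 groups. The sample titles name 3 replicates a group, or 2 at 8 months, but the values carry no spread between animals.

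Glutathione transferases join the tripeptide glutathione to electrophiles, among them drug metabolites and products of lipid oxidation. The soluble enzymes fall into classes (alpha, mu, pi, theta, omega, zeta and the mitochondrial kappa), and the Mgst enzymes sit in membranes. NRF2, the product of Nfe2l2, is a transcription factor that KEAP1 holds for degradation; electrophiles and oxidants release it, and it then binds antioxidant response elements with small MAF proteins. Its textbook targets include Nqo1 (a quinone reductase), Gclc and Gclm (the subunits of the enzyme that begins glutathione synthesis), Srxn1 (which repairs peroxiredoxins), Txnrd1 (thioredoxin reductase), Gsr (glutathione reductase), G6pdx (a source of NADPH), Hmox1 (heme oxygenase) and several transferase genes.

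The promoters of the pi class genes Gstp1 and Gstp2 are shown because these genes were lowest in DKO livers in every condition. The 120 bases before each annotated start are given 5′ to 3′ on the gene's strand (the minus strand), from the RefSeq table for GRCm38.p6, at chr19:4037913-4038032 for Gstp1 and chr19:4042222-4042341 for Gstp2. Capitals mark the motif TGANTCAGC, which holds the AP-1-like core of many NRF2 elements.
Gstp1: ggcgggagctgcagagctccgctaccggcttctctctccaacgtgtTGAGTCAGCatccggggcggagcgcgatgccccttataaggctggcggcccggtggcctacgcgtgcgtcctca
Gstp2: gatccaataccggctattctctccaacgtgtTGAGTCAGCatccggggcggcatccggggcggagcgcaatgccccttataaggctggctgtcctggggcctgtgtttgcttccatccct
These stretches matched at 88 of 135 columns of a global alignment, or 65.2%, and both genes carry the same 9 letters in a shared context. Promoter windows of 300 bases (250 before to 50 after the start) were at hand for 31 of the 36 members. TGANTCAGC, chosen after the windows were seen and searched on both strands, occurred in 3 of the 42 windows of these members (1 each of Gstp1, Gstp2 and Srxn1) and in 1.19% of 32851 windows of all genes. The more general antioxidant response core TGACNNNGC, which overlaps it in part so that a sequence can match both, was found on either strand in 9 of the 42 windows, 1 each of 9 members (G6pdx, Gclm, Gsta3, Gstm5, Gstm7, Mgst1, Nfe2l2, Srxn1 and Txnrd1) and in 12.4% of all windows. A match is a string of letters, and binding was not measured here.

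Differences below are on the log2(FPKM+1) scale, which understates the change of genes of low level, and come from limma with additive terms for genotype and condition. With 1 value a group, their standard errors (SE) measure departures from additivity, with 6 residual degrees of freedom. A difference was called where the p-value adjusted by Benjamini-Hochberg over the 11394 genes tested was under 0.05. The depth of the libraries is unknown. Ezh1 stood at 2.94% to 13.2% of the WT value in the E1KO and DKO columns, except that the E1KO column at 8 months held 43.1%. That column also held 358.6 FPKM summed over 8 skeletal muscle markers, against 0.98 to 1.71 in the other 11, so results that change without it are marked below. Ezh2 in E2KO columns was 69% to 86.8% of WT, and in E1KO columns, where it was not targeted, a like 72.1% to 85.7%. In DKO columns Ezh2 was 66.7% of WT at 2 months, 139.6% at 8 months (1.27 against 0.91 FPKM) and 44.2% with CCl4, so at 8 months the level of the targeted gene goes against the DKO label. Deletion in hepatocytes cannot be read from these bulk values, and the column is called DKO by its label. Without it, 4 members were called lower in DKO than in WT (Gstp1, Gstp2, Aox1 and Gsr), with differences of -1.38 for Gstp1 and -2.15 for Gstp2 (limma adjusted p = 0.0193 and 0.00837). A bulk value cannot tell fewer cells of a type from less RNA per cell, for this gene or any other.

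In DKO livers, 6 of the 33 members were lower than in WT and 0 were higher. They were the pi class genes Gstp1 and Gstp2, the mu class gene Gstm4, and Aox1, Gsr and Txnrd1. Over all genes tested, 2.62% were called in this comparison, 0.816% lower and 1.81% higher. The median difference of the members was -0.07, against -0.05 for all genes. The plot of the 6 genes gives their levels in every group.

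**Figure D1:**
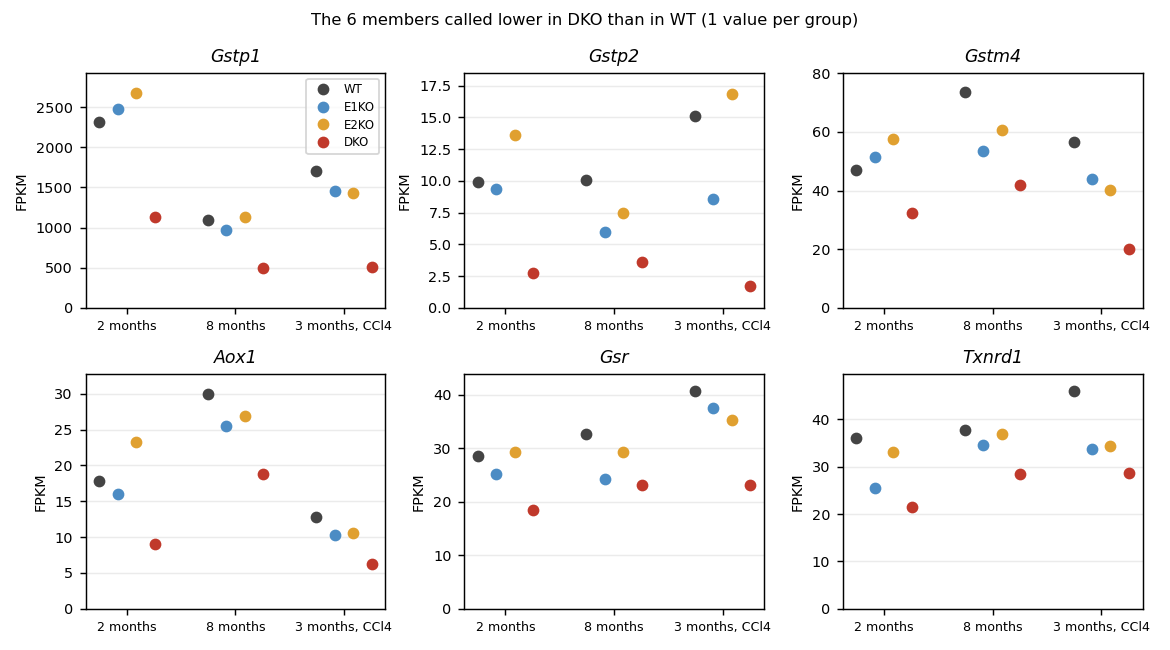
FPKM (vertical axes, from 0) of the 6 members called lower in DKO than in WT, with 1 point for each genotype in each condition. In all 6 genes the DKO point is the lowest of the 4 genotypes in each of the 3 conditions, and for Gstp1 the DKO values are 1136.98, 500.19 and 513.27 FPKM.

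Gstp1, the main pi class transferase of mouse liver, was among the most abundant members. In the order WT, E1KO, E2KO and DKO, which is kept in all such series below, its level was 2313.43, 2479.68, 2676.37 and 1136.98 FPKM at 2 months. The series was 1099.74, 973.68, 1134.77 and 500.19 FPKM at 8 months, and 1708.16, 1454.10, 1434.32 and 513.27 FPKM with CCl4. Within each condition WT, E1KO and E2KO lay close together and DKO lay below them, whereas across conditions the DKO value at 2 months overlapped the range of WT. The DKO level was 49.1%, 45.5% and 30% of WT in the 3 conditions in turn. The difference was -1.30 (SE 0.16, limma adjusted p = 0.009, 95% interval -1.66 to -0.94).

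Gstp2, its near-identical neighbour, was listed at a small part of that level, 0.243% to 1.16% of the summed FPKM of the pair. Since the copies share most of their sequence, how reads were divided between them is uncertain. Its levels were 9.89, 9.34, 13.62 and 2.77 FPKM at 2 months, 10.05, 5.98, 7.5 and 3.62 FPKM at 8 months, and 15.13, 8.55, 16.84 and 1.73 FPKM with CCl4. All 3 DKO values lay below the other 9. They were 28%, 36% and 11.4% of WT in turn, a difference of -1.78 (SE 0.29, limma adjusted p = 0.0239). Gstp1 and Gstp2 were the members more than 2-fold below WT on the log2(FPKM+1) scale in all 3 conditions. They were also lower in DKO than in E2KO, with differences of -1.30 for Gstp1 (SE 0.16, limma adjusted p = 0.00828) and -1.85 for Gstp2 (SE 0.29, limma adjusted p = 0.0197).

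Gstm4, of the mu class, stood at 46.87, 51.32, 57.70 and 32.21 FPKM at 2 months, 73.52, 53.45, 60.50 and 41.92 FPKM at 8 months, and 56.72, 43.82, 40.24 and 19.94 FPKM with CCl4. DKO was the lowest genotype in each condition, at 68.7%, 57% and 35.2% of WT. The difference was -0.93 (SE 0.18, limma adjusted p = 0.0405). The call was lost when any 1 of the 12 columns was left out (adjusted p from 0.0516 to 0.166, differences from -1.13 to -0.74). Of the other mu class genes, Gstm5 (0.43, limma adjusted p = 0.137) and Gstm7 (0.46, limma adjusted p = 0.157) had positive differences that were not called, and both were highest in DKO in all 3 conditions.

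Aox1, an aldehyde oxidase, was at 17.88, 16.02, 23.31 and 9.05 FPKM at 2 months, 29.99, 25.49, 26.91 and 18.74 FPKM at 8 months, and 12.82, 10.33, 10.52 and 6.30 FPKM with CCl4. DKO held 50.6%, 62.5% and 49.1% of WT (difference -0.83, SE 0.14, limma adjusted p = 0.0284), and Aox1 was also lower in DKO than in E2KO (-0.81, limma adjusted p = 0.0261). Gsr and Txnrd1, reductases of glutathione and of thioredoxin, were lower too.
Gsr was at 28.62, 25.19, 29.37 and 18.43 FPKM at 2 months, 32.68, 24.25, 29.35 and 23.17 FPKM at 8 months, and 40.64, 37.55, 35.27 and 23.21 FPKM with CCl4. All 3 DKO values lay below the other 9 (difference -0.62, SE 0.12, limma adjusted p = 0.034). Txnrd1 was at 36.03, 25.43, 33.11 and 21.58 FPKM at 2 months, 37.84, 34.53, 37.00 and 28.52 FPKM at 8 months, and 45.98, 33.83, 34.38 and 28.67 FPKM with CCl4. DKO was lowest in each condition, at 59.9%, 75.4% and 62.4% of WT (difference -0.59, SE 0.11, limma adjusted p = 0.0316). Txnrd1 in E1KO was also below WT in each condition, a difference that was not called (-0.35, limma adjusted p = 0.816). Its difference between DKO and E1KO was not called either (-0.24, limma adjusted p = 0.533).

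The other NRF2 targets among the members, and the regulators themselves, were not called between DKO and WT. Nfe2l2, which encodes NRF2, was at 18.69, 14.91, 23.49 and 16.58 FPKM at 2 months, 37.28, 34.71, 31.89 and 30.83 FPKM at 8 months, and 42.92, 39.38, 39.67 and 22.78 FPKM with CCl4. DKO held 88.7%, 82.7% and 53.1% of WT in turn, though across conditions the values of the genotypes overlapped. The difference was not called (-0.44, limma adjusted p = 0.243, 95% interval -0.86 to -0.02). Keap1, the inhibitor, had the narrowest range of these genes, from 12.40 to 15.50 FPKM over the 12 groups (difference -0.08, limma adjusted p = 0.61, 95% interval -0.26 to 0.10).
Nqo1, often read as the marker of NRF2 activity, was at 3.04, 4.19, 3.95 and 5.24 FPKM at 2 months, 8.56, 7.12, 5.49 and 14.34 FPKM at 8 months, and 6.98, 3.81, 2.17 and 8.09 FPKM with CCl4. DKO was the highest genotype in each condition, but the difference from WT was not called (0.50, SE 0.26, limma adjusted p = 0.341, 95% interval -0.09 to 1.09).

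Among the genes of glutathione synthesis, Gclc, the catalytic subunit, was at 71.58, 45.76, 96.88 and 31.10 FPKM at 2 months, 79.85, 82.55, 99.36 and 76.42 FPKM at 8 months, and 58.21, 53.53, 41.42 and 57.99 FPKM with CCl4. DKO was the lowest genotype at 2 months, more than 2-fold below WT, but its value lay near that of WT in the other conditions (difference -0.41, limma adjusted p = 0.523, 95% interval -1.15 to 0.32). Gclm, the modifier subunit, was at 91.07, 104.57, 115.74 and 73.91 FPKM, then 93.75, 84.54, 110.25 and 74.54 FPKM, then 69.97, 77.27, 65.37 and 75.10 FPKM in the same order of conditions. For Gclm, DKO was below WT at 2 and 8 months and above it with CCl4 (difference -0.17, limma adjusted p = 0.595).
Srxn1 was at 18.23, 14.10, 13.99 and 15.27 FPKM at 2 months, 16.94, 15.72, 11.10 and 26.65 FPKM at 8 months, and 41.12, 27.73, 24.17 and 26.83 FPKM with CCl4. DKO was highest at 8 months and below WT in the other conditions (difference -0.07, limma adjusted p = 0.889). Hmox1 was at 17, 8.43, 7.38 and 7.13 FPKM at 2 months, 9.50, 6.15, 7.55 and 12.94 FPKM at 8 months, and 18.14, 39.83, 20.67 and 35.89 FPKM with CCl4. The WT column stood above the other genotypes at 2 months and below them with CCl4, so Hmox1 had no one order of genotypes (difference 0.07, limma adjusted p = 0.945, 95% interval -0.81 to 0.95). The plot of the genotype differences sets all members side by side.

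**Figure D2:**
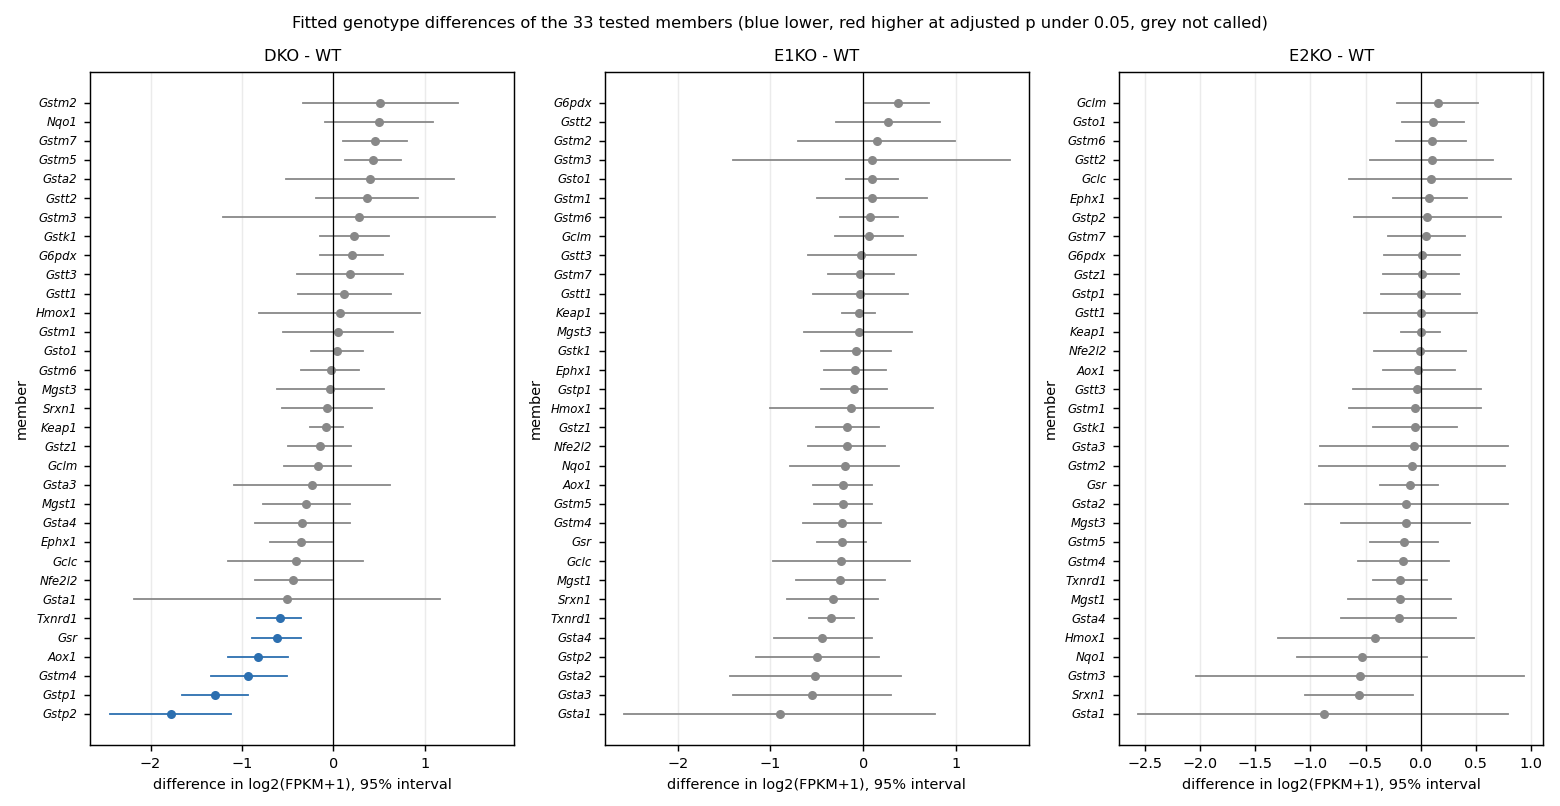
Differences in log2(FPKM+1) between genotypes (horizontal axes) for the 33 members tested, with 95% intervals from the additive limma fit. Gstp2 (-1.78) and Gstp1 (-1.30) lie farthest below 0 in DKO against WT, and no member was called in E1KO or E2KO against WT.

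The DKO calls rested on the whole design: with the columns of any 1 condition left out, or with only the WT and DKO columns fitted, 0 members were called against WT. Leaving out the WT column with CCl4 also gave 0, and leaving out the WT, E1KO or DKO column at 2 months, the WT column at 8 months or the DKO column with CCl4 gave 1 or 2. The directions of the 6 genes were kept in all of these fits, and Gstp1 was called in 18 of 23 alternatives (adjusted p from 0.00545 to 0.181).

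DKO was the lowest of the 4 genotypes in all 3 conditions for 7 of the 33 members, against 8.63% of all genes tested; these were the 6 called genes and Ephx1, microsomal epoxide hydrolase (difference -0.35, limma adjusted p = 0.242). DKO was highest in all 3 for Gstm5, Gstm7 and Nqo1, 3 members, against 5.94% of all genes. All 3 DKO values lay below the other 9 for 2 members (1.02% of all genes) and above them for 1, Gstm7 (1.25%).

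Neither single knockout changed a member past the threshold. Against WT, limma called 0 of 33 members in E1KO, and 0.0176% of all genes were called. In E1KO 2 members had an unadjusted p under 0.05, Txnrd1 (-0.35) and G6pdx (0.37). In E2KO limma called 0 members, with 1 at an unadjusted p under 0.05, and 0% of all genes were called. For Gstp1 the differences were -0.10 in E1KO and 0.00 in E2KO (95% interval -0.36 to 0.36). Against E1KO, 1 member was lower in DKO, Gstp1 (-1.19, SE 0.16, limma adjusted p = 0.0242), where 0.658% of all genes were called and 0.0965% were lower. Its call was lost without the E1KO column of any condition or the E2KO column at 2 months. Against E2KO, 3 members were lower (Gstp1, Gstp2 and Aox1), where 3.05% of all genes were called and 0.983% were lower; that count fell to 0 without the E2KO column at 2 months, and to 1 without the DKO column at 2 months or the E2KO column with CCl4. These comparisons share the DKO columns.

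Whether the loss of both genes differed from the sum of the single losses was tested directly. No member passed in limma (0 of 33, with 6 at an unadjusted p under 0.05, and 0.0351% of all genes called). The value for Gstp1 was -1.20 (SE 0.22, adjusted p = 0.18, 95% interval -1.70 to -0.69). For Gstp2 it was -1.35 (adjusted p = 0.522), and for Nqo1 it was 1.23 (adjusted p = 0.495).

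Within each condition, genes with a male or female bias in liver also differed between DKO and the other genotypes. Both lists were chosen with earlier results of these data known. Between DKO and WT, 0.816% of all genes were called lower and 1.81% higher. The summed level of 12 male-biased genes was 5523.6, 4738.9, 5806.7 and 3063.2 FPKM at 2 months, 4001.4, 2831.6, 2867.2 and 1545.0 FPKM at 8 months, and 1456.3, 1306.0, 1795.4 and 976.7 FPKM with CCl4, and was lowest in DKO in each condition; 4 of the 12 were called lower and 0 were listed at 0 in any group. The female-biased list (12 genes, of which 0 to 3 were at 0 in a group, and 5 were called higher in DKO) summed to 9.43 to 52.4 FPKM in the other genotypes and 299.1 to 369.5 FPKM in DKO. Pi class transferase is known to be higher in livers of male mice; the part of sex or of sex-biased expression in the result was not tested. Markers of other liver cells were also compared between DKO and WT. The 14 macrophage markers, none at 0, summed to 225.4, 197.4 and 796.4 FPKM in DKO and 204.8, 114.2 and 419.8 FPKM in WT in turn; 14 of 14 differences were positive and 0 were called. The 9 stellate cell markers, none at 0, summed to 125.5, 196.6 and 291.2 FPKM in DKO and 75.8, 94.8 and 213.9 FPKM in WT. Of their differences 8 of 9 were positive and 1 was called, that of Dcn. E1KO against WT was alike, with 14 of 14 macrophage and 7 of 9 stellate differences positive and 0 called. The medians were 0.49 and 0.50 in E1KO, and 0.43 and 0.48 in DKO. The E1KO stellate values include the 8-month column that held skeletal muscle markers. In it Des and Acta2 were at 22.74 and 5.91 FPKM, against 2 and 2.21 FPKM in WT at 8 months. The marker lists were not refitted without this column. Of 8 cholangiocyte markers (1 at 0 in E1KO at 2 months, none elsewhere), 5 were tested. All 5 had positive differences and Cldn7 was called higher. Their sum, 89.5, 304.9 and 698.2 FPKM in DKO and 60.2, 44.4 and 406.6 FPKM in WT, was nearly all Spp1 (84.34, 290.01 and 684.04 FPKM in DKO and 56.72, 41.33 and 397.63 FPKM in WT). The duct keratin Krt19 was at 1.01, 2.06 and 1.86 FPKM in DKO and 0.83, 0.64 and 2.77 FPKM in WT in turn. Of 9 hepatocyte markers, none at 0, 0 were called and 7 had positive differences. The part of these cells in the DKO results was not tested.

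The DKO difference was then compared between conditions, with DKO set against the average of the other genotypes and 4 residual degrees of freedom. No member was called in limma for CCl4 against 2 months (0 of 33, 2 at an unadjusted p under 0.05, 0.29% of all genes called) or for 8 months against 2 months (0 of 33, 2 at an unadjusted p under 0.05, 0.246% of all genes called). Within single conditions, members past 2-fold on the log2(FPKM+1) scale between DKO and WT are a description with no test. At 2 months 4 were lower (Gclc, Gstp1, Gstp2 and Hmox1) and 0 higher, where 1.48% of all genes were lower and 1.99% higher. In the library labelled DKO at 8 months 3 were higher (Gsta1, Gstm2 and Gstm3) and 2 lower (Gstp1 and Gstp2), where 2.86% of all genes were higher and 1.22% lower. With CCl4 5 were lower (Gsta1, Gstm3, Gstm4, Gstp1 and Gstp2) and 0 higher, where 2.47% were lower and 2.93% higher.

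In the single knockouts the members past 2-fold from WT included the alpha class genes Gsta1, Gsta2 and Gsta3. In E1KO there was 1 higher at 2 months (Gstt2; 1.09% of all genes higher, 1.14% lower), 1 lower at 8 months (Gsta1; 0.843% and 1.1%), and with CCl4 1 higher (Hmox1) and 2 lower (Gsta1 and Gsta3; 1.2% and 0.825%). In E2KO there was 1 higher (Gsta2) and 1 lower (Hmox1) at 2 months (0.395% and 0.816%), and 1 lower at 8 months (Gsta1; 1.38% and 1.42%). With CCl4 4 were lower in E2KO (Gsta1, Gsta2, Gstm3 and Nqo1; 0.421% of all genes higher, 0.579% lower). Gsta1 was more than 2-fold below WT in 4 of these 6 comparisons, a description with no test. E1KO and E2KO share the WT value of each condition, 6.5 FPKM at 8 months and 22.01 FPKM with CCl4. At 2 months Gsta1 was at only 0.48 to 0.92 FPKM.

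The alpha and mu genes that were high in the library labelled DKO at 8 months, where Ezh2 was above WT, had wide ranges. Gsta1 was at 0.58, 0.48, 0.92 and 0.55 FPKM at 2 months, 6.5, 1.59, 1.85 and 15.61 FPKM at 8 months, and 22.01, 9.93, 6.94 and 2.67 FPKM with CCl4. DKO was thus the highest genotype at 8 months and the lowest with CCl4; the change of its difference from 2 to 8 months was 2.21 (SE 0.70, limma adjusted p = 0.86). Gstm2 was at 106.32, 156.25, 135.71 and 173.25 FPKM at 2 months, 148.24, 106.92, 164.92 and 329.80 FPKM at 8 months, and 74.76, 95.73, 44.67 and 60.08 FPKM with CCl4. Gstm3, its neighbour, was at 340.72 FPKM in DKO at 8 months, against 79.06 to 149.25 FPKM in the other genotypes of that age. With CCl4 Gstm3 was lowest in E2KO (19.87 FPKM) and DKO (42.38 FPKM) and higher in WT (87.93 FPKM) and E1KO (132.03 FPKM). Reads of mu class paralogs are hard to tell apart, and how they were divided was not tested. The Pearson correlation of Gstm2 with Gstm3 over the 12 groups was 0.936, and that of Gsta2 with Gstt3, of different classes, was 0.975. The plot of centred levels shows these departures beside the pi class.

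**Figure D3:**
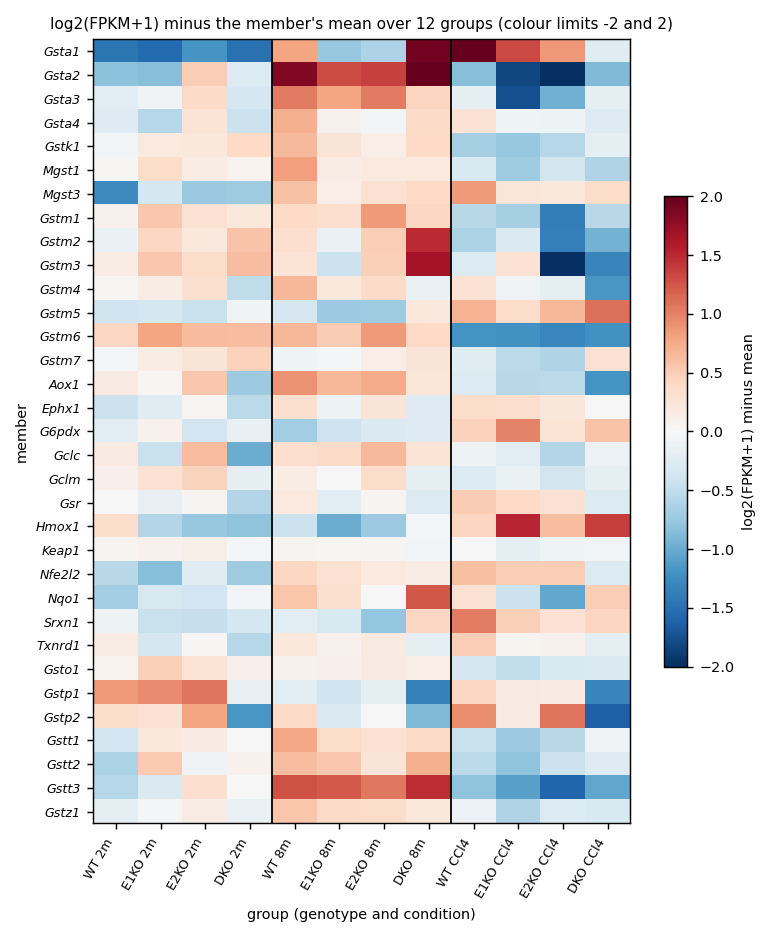
Level of each member in each of the 12 groups as log2(FPKM+1) minus its mean over the groups (colour, with limits at -2 and 2). Gstp1 and Gstp2 are low in the DKO groups of all 3 conditions, and Gsta1 is low in the 4 groups at 2 months.

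With CCl4 the stress regulator gene Nfe2l2 and targets such as Hmox1 and Srxn1 rose, and abundant transferases such as Gstm1, Gstm6 and Gstp1 fell. Against 2 months, 22 of 33 members were called, 10 higher and 12 lower, where 57.9% of all genes were called (33.4% higher and 24.5% lower). Of the 12 NRF2 and detoxification genes 7 rose and 2 fell, with a median difference of 0.35. Of the 21 transferases tested 3 rose and 10 fell, with a median of -0.59, and the median of all genes was 0.07. These counts are descriptions of the lists. With quantile scaling 9 members were higher and 14 lower, and with median-of-ratios scaling 9 and 16; over all genes the share of calls that were higher was 57.6% as deposited, 47.2% with quantile and 47.4% with median-of-ratios scaling.

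Nfe2l2 rose by 0.92 with CCl4 (SE 0.16, limma adjusted p = 0.00131). In WT it went from 18.69 to 42.92 FPKM and in DKO from 16.58 to 22.78 FPKM; the change of the DKO difference was -0.64 (limma adjusted p = 0.604). Hmox1 rose by 1.44 (SE 0.34, limma adjusted p = 0.00591), but in WT, whose value at 2 months was high, the levels were 17 and 18.14 FPKM. Srxn1 rose by 0.90 (SE 0.19, limma adjusted p = 0.00335), and its 4 values with CCl4, from 24.17 to 41.12 FPKM, lay above all 4 at 2 months. G6pdx rose by 0.74, Ephx1 by 0.53, Gsr by 0.41 and Txnrd1 by 0.30 (limma adjusted p from 0.00139 to 0.0229). Aox1 fell by 0.64 and Gclm by 0.40 (limma adjusted p = 0.00216 and 0.0352). The calls of Txnrd1 and Gclm were lost in 6 and 7 of 20 alternatives. Nqo1 (0.19, limma adjusted p = 0.483), Gclc (-0.10, limma adjusted p = 0.773) and Keap1 (-0.14, limma adjusted p = 0.12) were not called.

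Among the transferases the largest rise with CCl4 was that of Gsta1 (2.51, SE 0.64, limma adjusted p = 0.00889). Its highest level at 2 months was 0.92 FPKM, and its lowest with CCl4 was 2.67 FPKM. Mgst3, a microsomal enzyme, was at 18.35, 35.65, 27.12 and 27.65 FPKM at 2 months, 69.86, 50.30, 56.90 and 60.86 FPKM at 8 months, and 84.03, 54.65, 53.28 and 59.90 FPKM with CCl4. Every value of Mgst3 at 8 months or with CCl4 lay above those at 2 months (CCl4 difference 1.19, SE 0.22, limma adjusted p = 0.00192). Gstm5 rose by 1.02 (SE 0.12, limma adjusted p = 0.000168), the only 1 of the 7 mu class genes to do so.

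Gstm1 and Gstm6 fell, with lower values than at 2 months in all 4 genotypes. Gstm1 was at 1912.54, 2614.93, 2242.91 and 2095.97 FPKM at 2 months, 2388.76, 2284.20, 3269.15 and 2412.57 FPKM at 8 months, and 1231.55, 1140.69, 693.21 and 1233.60 FPKM with CCl4. Its 4 values with CCl4 lay below the other 8 (-1.07, SE 0.23, limma adjusted p = 0.00364). Gstm6 was at 159.38, 207.12, 185.07 and 183.49 FPKM at 2 months, 189.58, 169.75, 215.61 and 156.69 FPKM at 8 months, and 51.59, 51.00, 47.65 and 50.65 FPKM with CCl4, with the groups far apart and the genotypes within CCl4 close together (-1.85, SE 0.12, limma adjusted p = 2.24e-05). Gstm2 fell by 1.07 (SE 0.32, limma adjusted p = 0.0187), to 44.67 to 95.73 FPKM. The other calls were Gsta2, Gstt3, Gstp1, Gstk1, Mgst1, Gsto1 and Gstm7, with differences from -1.03 to -0.48. Gsta3, the main alpha class gene, was at 817.31, 900.06, 1227.90 and 749.37 FPKM at 2 months, 1933.16, 1630.23, 1938.66 and 1272.29 FPKM at 8 months, and 819.99, 278.75, 481.58 and 834.03 FPKM with CCl4. WT and DKO were at like levels at 2 months and with CCl4 while E1KO and E2KO were lower with CCl4, and the CCl4 difference was not called (-0.72, limma adjusted p = 0.0859).

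**Figure D4:**
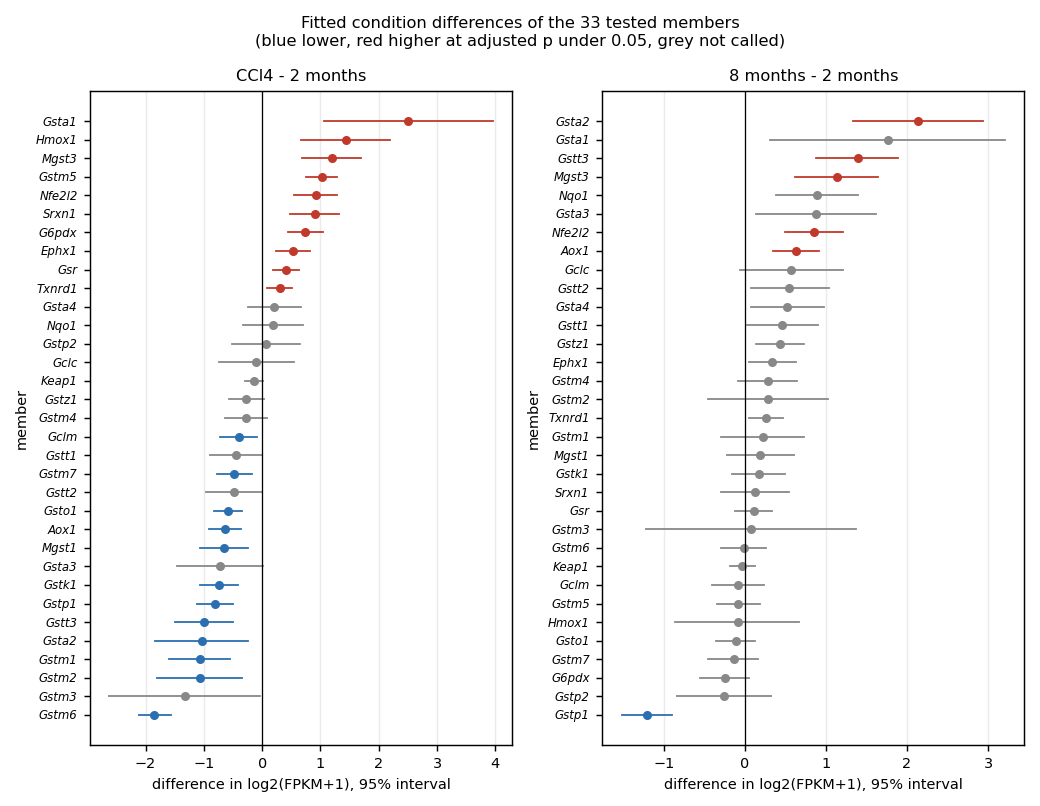
Differences in log2(FPKM+1) between conditions (horizontal axes) for the 33 members tested, with 95% intervals from the additive limma fit. With CCl4, Gsta1 (2.51) lies farthest above 0 and Gstm6 (-1.85) farthest below; at 8 months, Gsta2 (2.13) and Gstp1 (-1.21) are at the ends among the called genes.

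Markers of other cells differed with CCl4 too. Macrophage markers (14 genes, none at 0) summed to 114.2 to 282.8 FPKM without and 419.8 to 936.4 FPKM with CCl4. Proliferation markers (5 genes, none at 0) summed to 1.29 to 7.14 FPKM without and 44 to 184.6 FPKM with it. Stellate cell markers (9 genes, none at 0) summed to 75.8 to 196.6 FPKM without and 213.9 to 291.2 FPKM with it. Of the 9 hepatocyte markers 1 rose and 5 fell, and they summed to 11044.2 to 15419.7 FPKM without CCl4, to 4180.4 to 4764.2 FPKM with it in WT, E1KO and E2KO, and to 10761.6 FPKM in DKO with it. Most of the DKO sum with CCl4 came from Cyp2e1 (3856.59 FPKM) and Cyp3a11 (3876.55 FPKM). Ass1, of the urea cycle, was at 1637.01 FPKM in DKO at 2 months and 859.42 FPKM with CCl4, against 1471.73 and 698.89 FPKM in WT. The change of the DKO difference from 2 months to CCl4 was positive for 9 of the 9 markers (median 0.81), and 0 were called. The part of these cells in the CCl4 results was not tested.

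From 2 to 8 months, 5 members rose and 1 fell, where 4.29% of all genes were called, 2.7% higher and 1.59% lower. Gsta2, an alpha class gene, was at 9.01, 8.77, 23.85 and 13.68 FPKM at 2 months, 63.15, 42.81, 44.58 and 102.04 FPKM at 8 months, and 8.82, 4.04, 3.27 and 8.58 FPKM with CCl4. Its values at 8 months lay above the other 8 (2.13, SE 0.35, limma adjusted p = 0.0171). Gstt3, of the theta class, followed it closely (Pearson r = 0.975 over the 12 groups), at 19.06, 23.57, 36.67 and 29.19 FPKM at 2 months, 71.57, 69.03, 61.26 and 81.93 FPKM at 8 months, and 16.19, 13.04, 8.99 and 13.53 FPKM with CCl4 (1.39, SE 0.22, limma adjusted p = 0.0157). Mgst3 (1.13, limma adjusted p = 0.0309), Nfe2l2 (0.85, limma adjusted p = 0.0267) and Aox1 (0.63, limma adjusted p = 0.0297) also rose. Gstp1 went the other way (-1.21, SE 0.14, limma adjusted p = 0.00441), and each genotype had less than 50% of its level at 2 months. Nqo1 (0.89) was not called (limma adjusted p = 0.0617). The count of 6 was 1 without the E1KO column at 8 months, when Gstp1 was still called (adjusted p = 0.0215). It was also 1 without the DKO column at 2 months, the WT column at 8 months or all the CCl4 columns, 2 without the E1KO column at 2 months, and 3 without the WT column at 2 months or the DKO column at 8 months.

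The make-up of the transferase pool differed between the groups. Summed over the 21 Gst genes, the level was 6645.3, 8000.8, 8232.3 and 5907.1 FPKM at 2 months, 8091.7, 7033.6, 8611.5 and 6904.6 FPKM at 8 months, and 5239.4, 4133.3, 3839.9 and 3973.9 FPKM with CCl4. The share held by Gstp1 was 34.8%, 31%, 32.5% and 19.2% at 2 months. At 8 months its share was 13.6%, 13.8%, 13.2% and 7.24%, and under CCl4 it was 32.6%, 35.2%, 37.4% and 12.9%. The share of the pi gene was thus lowest in DKO within each condition and lower at 8 months than at 2 months in every genotype. The mu class held 46.7%, 49% and 38.7% of the sum in DKO in turn, and 24.1% to 45.8% in the other genotypes. The mu level itself summed to 2757.6, 3384.1 and 1536.3 FPKM in DKO and 2422.2, 3006.1 and 1594.2 FPKM in WT. In no condition was the mu sum highest in DKO. The most abundant soluble members by mean level were Gstm1 (1960.0 FPKM), Gstp1 (1452.1 FPKM) and Gsta3 (1073.6 FPKM). Mgst1, a membrane enzyme, exceeded each of them, at 3793.57 to 10932.60 FPKM.

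**Figure D5:**
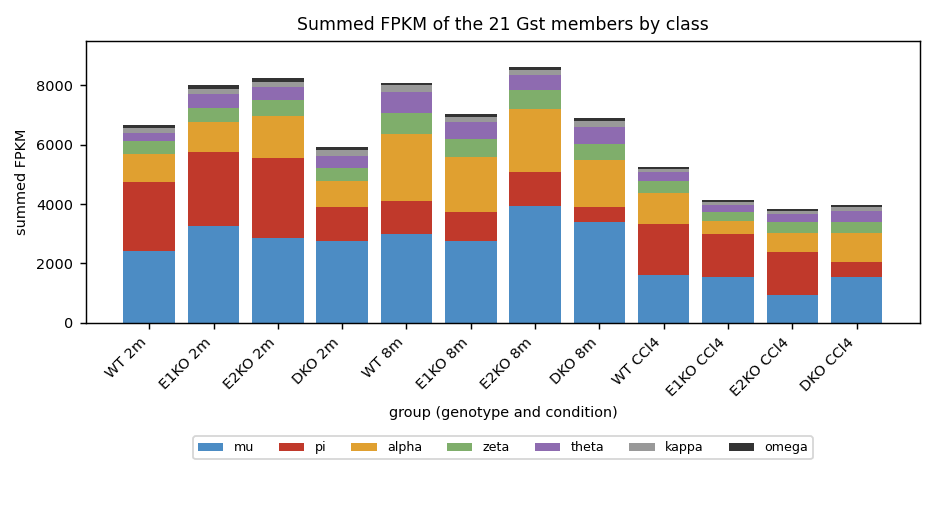
Summed FPKM of the 21 Gst genes (vertical axis, from 0) in each of the 12 groups, stacked by class. The pi class segment is smallest in the DKO bar of each condition, and the whole bars run from 3839.9 to 8611.5 FPKM.

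The remaining tested transferases had no called genotype difference. Gsta4 ran from 103.29 to 251.34 FPKM, Gstt1 from 189.13 to 533.82 FPKM, and Gstt2 from 34.39 to 100.66 FPKM. Gstk1 ran from 87.39 to 233.87 FPKM, Gsto1 from 63.78 to 126.24 FPKM, and Gstz1, which acts in tyrosine breakdown, from 308.44 to 692.33 FPKM. G6pdx was low throughout, at 1.02 to 5.54 FPKM.

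Of the 3 members below the filter, Gstt4 was at 0 to 0.03 FPKM and Gsto2 at 0.07 to 0.35 FPKM. Mgst2 was at 0.00, 0.11, 0.09 and 0.82 FPKM at 2 months, 0.05, 0.24, 0.04 and 1.27 FPKM at 8 months, and 0.23, 0.15, 0.07 and 0.92 FPKM with CCl4. All 3 DKO values of Mgst2 lay above the other 9. When no filter was applied, over 20115 genes, the Mgst2 difference of DKO from WT was 0.87 (SE 0.09, limma adjusted p = 0.0111), on a scale that compresses levels this low. At 1.27 FPKM or less, Mgst2 remained among the lowest of the members.

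Other genes of NRF2 and glutathione biology were counted from a separate list of 54, of which 49 were tested. In DKO against WT 1 was higher and 0 lower, with a median difference of -0.12. The gene was Gpx3, the secreted glutathione peroxidase, at 3.04, 3.98, 2.09 and 8.97 FPKM at 2 months, 2.41, 3.93, 1.92 and 8.47 FPKM at 8 months, and 12.22, 11.83, 12.59 and 43.06 FPKM with CCl4. DKO stood above the other genotypes in each condition (1.5, SE 0.17, limma adjusted p = 0.00645). With CCl4 11 of the 49 rose and 12 fell, where 33.4% of all genes were higher and 24.5% lower. From 2 to 8 months 3 rose and 0 fell, where 2.7% of all genes were higher and 1.59% lower.

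The genes whose log2(FPKM+1) followed Gstp1 most closely over the 12 groups were F11, the coagulation factor XI gene (Pearson r = 0.961), Edc3 (0.926), Msl2 (0.900), Mtmr14 (0.894) and Xiap (0.890). F11 was at 74.05, 68.67, 65.33 and 43.64 FPKM at 2 months, 30.73, 30.32, 25.27 and 17.15 FPKM at 8 months, and 52.1, 48.48, 48.56 and 16.18 FPKM with CCl4. Like Gstp1 it was lowest in DKO in each condition and lower at 8 months than at 2 months. The groups share condition and genotype, so these correlations are descriptions.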

How the data were processed

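Liver RNA-seq values came from the table the authors deposited as FPKM, 1 column for each of 12 groups. Per the submitters' processing notes, CASAVA, TopHat and Cufflinks were used (BWA, SICER and HOMER are also named) on mm9; the sources used here do not give versions or how replicates were combined. Read depth is unknown. The 9 ChIP-seq samples are not analysed here. The members and lists were chosen with earlier results of these data known.

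The 11394 genes that reached 1 FPKM in 2 or more columns were fitted as log2(FPKM+1), pseudocount 1, with limma 3.58.1 in R 4.3.3 (additive genotype and condition, 6 residual degrees of freedom; 4 with DKO-by-condition terms), two-sided, with Benjamini-Hochberg adjustment over all tested genes. The fit was tested on simulated data. Values in all columns are given for members called between genotypes, for NRF2 core genes, for the 6 largest CCl4 and 3 largest age calls, for the 3 most abundant Gst genes, and for members past 2-fold in 3 of 3 conditions; Gstm2, Gstm3 and Mgst2 were added after their values were seen. Promoters came from RefSeq (GRCm38.p6), matched by symbol. Alternatives were other scalings, filters and pseudocounts, and columns left out.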

Additional observations from a re-analysis of the deposited data

Results flagged for a closer look

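For 3 members the difference from WT had opposite signs in a pair of conditions, each past 2-fold on the log2(FPKM+1) scale. Each rests on 1 value a group, and the difference between the conditions named was not tested. Gsta2 in E2KO against WT was 1.31 at 2 months and -1.20 with CCl4. Gsta1 in DKO against WT was 1.15 at 8 months and -2.65 with CCl4. Gstm3 in DKO against WT was 1.40 at 8 months and -1.04 with CCl4.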

How the results depend on the processing

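No paired analysis was possible because each group is 1 column with no replicate numbers. No member named with a call changed direction in the alternatives run. Members called in DKO against WT were 6, and 3 with quantile scaling, under which calls over all genes went from 206 higher and 93 lower to 117 and 39. They were 0 without the columns at 2 months, at 8 months or with CCl4, and 0 with only these genotypes. Against E1KO the count of 1 became 2 without a filter, 0 without each condition in turn, and 0 with only these genotypes. Against E2KO the count of 3 became 0, 1 and 0 without 2 months, 8 months and CCl4, and 0 with only these genotypes. From 2 to 8 months the count of 6 became 1 without the CCl4 columns. Leaving out 1 column at a time gave 0 to 5, 0 to 2, 0 to 3 and 1 to 7 calls for these comparisons in turn, and 18 to 25 for CCl4 (22). Fits without columns have fewer samples; the cause of the other changes was not tested. In E1KO and E2KO against WT, and for non-additivity and the change of the DKO difference, every alternative run gave 0. Over 23 alternatives of DKO against WT, Gstp2 was called in 15, Aox1 in 13, Txnrd1 in 10, Gsr in 9 and Gstm4 in 5. For CCl4 against 2 months, 20 alternatives were run. The call was lost in 7 for Gclm, 6 for Txnrd1, 6 for Gsta2, 4 for Gstm2, 2 for Mgst1 and 1 for Gstm7.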

Other observations

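In the list of other NRF2 and glutathione genes, those that rose with CCl4 included Gpx3 (1.84), Cbr3, a carbonyl reductase (1.43), Gpx4, which reduces lipid peroxides (1.06), and Prdx1, a peroxiredoxin (0.65), with limma adjusted p from 3.91e-05 to 0.00362. Cbr3 was at 0.15 to 0.57 FPKM at 2 months and 0.87 to 4.68 FPKM with CCl4. Those that fell included Chac1, which degrades glutathione (-1.11, limma adjusted p = 0.0137), Txn1, thioredoxin (-0.67, limma adjusted p = 0.00769), Glo1 (-0.68, limma adjusted p = 0.0182) and Sqstm1 (-0.56, limma adjusted p = 0.0133). Chac1 with CCl4 was at 0.52, 0.68 and 0.83 FPKM in WT, E1KO and E2KO and at 4.66 FPKM in DKO, where it was 4.21 FPKM at 2 months. From 2 to 8 months Me1, malic enzyme, rose by 1.13 (limma adjusted p = 0.0373), from 52.79 to 197.6 FPKM in WT and from 49.52 to 72.44 FPKM in DKO; these genes were singled out after their values were seen.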
